A study of Mus musculus with 6 samples.

Results

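The cyclin-dependent kinase (CDK) inhibitors are 8 genes here: the CIP/KIP genes CDKN1A, CDKN1B and CDKN1C, the INK4 genes CDKN2A, CDKN2B, CDKN2C and CDKN2D, and CDKN3. They were taken by exact symbol from the count tables of the 6 libraries, in which 6 of the 8 symbols had a row among 17144 listed genes. All 6 entered the test, which covered 12682 genes. CDKN2A and CDKN2B had no row in the tables used and were not analysed here, so the INK4 group consists of 2 of its 4 members. The count of CDKN1A and the other members is the whole-gene count, and transcript variants were not separated.

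Messenger RNA was sequenced from the human osteosarcoma cell line SaOS2, as the cells are labelled, in group D (3 libraries) and group C (3 libraries). The labels give the mouse as the organism, but the gene symbols are human ones. The series is about the effect of a compound called DDTC(I), but the labels carry only the letters D and C. They give no dose, time or vehicle, so each difference is stated as D over C and neither group is called treated. Whether replicates were grown as separate cultures is not stated, so each p refers to the spread among 3 libraries a group, and that spread may be technical only.

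Cells advance through division when cyclins activate CDKs. INK4 proteins bind the CDKs partnered by D-type cyclins, CDK4 and CDK6, and keep them inactive. CIP/KIP proteins bind cyclin and CDK together, and act most strongly on complexes of CDK2. CDKN3 encodes KAP, a phosphatase that removes the activating phosphate of CDKs, and its mRNA is itself made in dividing cells. Both inhibitor families act mainly in G1, upstream of the retinoblastoma protein RB and the E2F transcription factors, and SaOS2 is known for lacking a working RB protein.

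Total counts per library were between 18446443 and 20602771, and 3 counts, taken as the floor of detection, corresponded to 0.139 to 0.170 normalized CPM, the unit of counts after scaling all libraries to the same total. Floors and counting intervals cover counting error only. At an adjusted p under 0.05 (edgeR quasi-likelihood test, Benjamini-Hochberg), 26.8% of the 12682 genes were called higher in D and 27.7% lower. The shares with a change of at least 2-fold were 8.37% and 10.1%. Among the calls, 49.2% were higher, and 36.8% with library size as the only scaling, which moved the median log2 fold change of all genes to −0.17. Relative to the C mean, log2 CPM in D replicate 3 fell with gene length (slope −0.327 per doubling of length, against −0.132 in D replicate 1 and 0.0262 in D replicate 2). The 6 measured members are 1004 to 2716 bp long by the length implied in the deposited values. Among the 3241 tested genes in that length range, 34% were called higher and 21.5% lower, with a median log2 fold change of 0.13. Of 8 osteoblast markers, 4 had more than 3 counts in every library. RUNX2, the bone lineage factor, had 131 to 217 counts in D and 395 to 422 in C, and the collagen gene COL1A2 had 848 to 947 in D and 3337 to 4033 in C. ALPL, the alkaline phosphatase gene, had 9 to 15 counts in D and 8 to 13 in C. SPP1, on the same list, went the other way, with 29 to 51 counts in D and 2 to 10 in C. It passed the filter on low counts only through the D libraries, so it is given by its counts. SP7, BGLAP and IBSP had at most 2 counts in any library. The markers were mixed, and the cells are named by their label.

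The CDK inhibitor genes went both ways. CDKN1A and CDKN1C were higher in D, while CDKN1B, CDKN2C, CDKN2D and CDKN3 were lower. CDKN1C passed the filter on low counts only through the D libraries, so it is given by its counts and left out of the tally. The other 5 measured members were called, 1 higher and 4 lower, set beside 54.4% of all genes called in either direction. Of the CIP/KIP genes in the tally CDKN1A was higher and CDKN1B lower, and both INK4 genes that could be measured were lower. In bulk libraries, less RNA of a gene per cell and fewer cells that express it cannot be told apart.

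**Figure D1:**
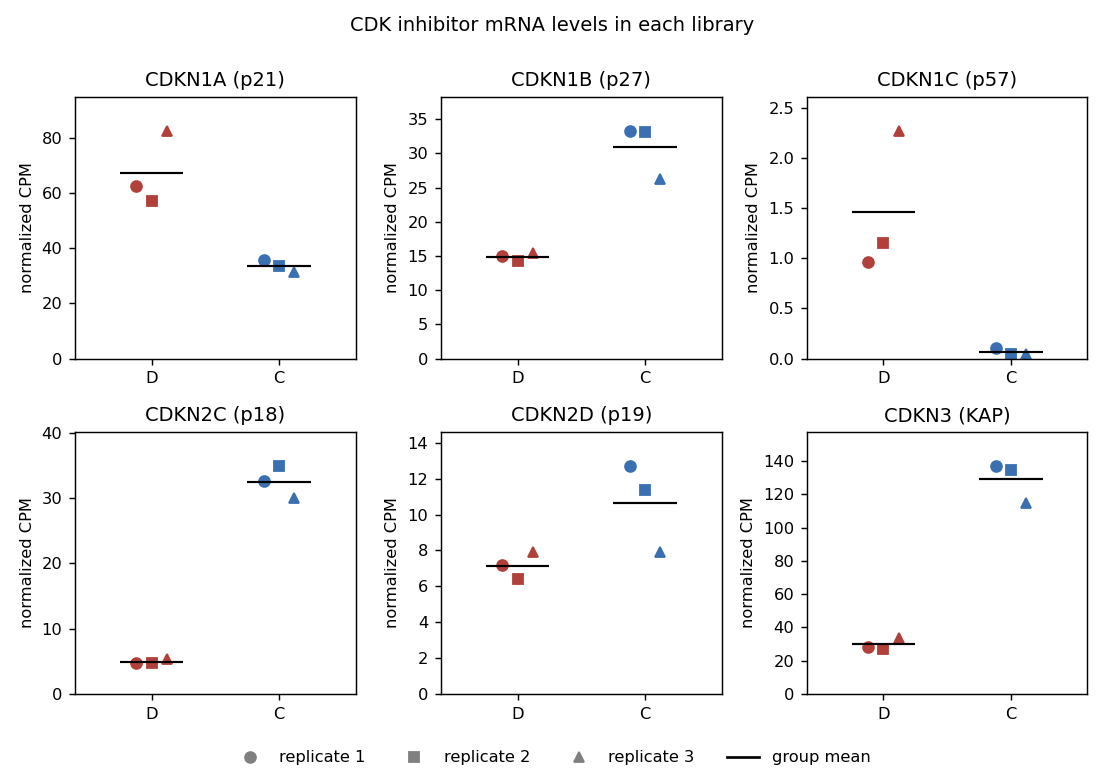
Normalized CPM of the 6 measured CDK inhibitor genes in each library, with group D left of group C; symbols mark the replicates and the line is the group mean (n = 3). The groups come closest for CDKN2D, at 7.89 CPM in D replicate 3 and 7.91 CPM in C replicate 3.

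CDKN1A encodes p21, the CIP/KIP inhibitor that many stress signals can raise. Its normalized CPM was 62.4, 57.3 and 82.6 in D replicates 1, 2 and 3, against 35.7, 33.7 and 31.4 in C replicates 1, 2 and 3. All D libraries lay above all C libraries, and D replicate 3 stood highest. The means were 67.4 ± 13.4 CPM in D and 33.6 ± 2.18 CPM in C (SD, n = 3 each), a log2 fold change of 1.01 ± 0.15 (SE; 95% interval 0.66 to 1.35; adjusted p = 0.00069, edgeR). Without D replicate 3 it was 0.85 (adjusted p = 1.3e-05, edgeR), and over all alternatives the adjusted p stayed between 3.2e-08 and 0.0053.

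CDKN1B encodes p27, the CIP/KIP inhibitor that holds resting cells in G1 and is mostly controlled through its degradation. It had 15.0, 14.3 and 15.4 CPM in the D libraries, against 33.3, 33.1 and 26.2 CPM in the C libraries. The D libraries were nearly equal, and the lowest C library was still above every D library. The means were 14.9 ± 0.57 CPM in D and 30.9 ± 4.04 CPM in C, a log2 fold change of −1.05 ± 0.13 (95% interval −1.35 to −0.75; adjusted p = 0.00027, edgeR). With TMM scaling CDKN1A and CDKN1B thus changed in opposite directions by about the same factor. Over all alternatives the log2 fold change was 0.79 to 1.14 for CDKN1A and −1.20 to −0.98 for CDKN1B, so the likeness in size depends on the fit.

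The ratio of the 2 genes needs no scaling between libraries. CDKN1A over CDKN1B in FPKM (counts scaled by gene length and by library total) was 3.69, 3.55 and 4.75 in the D libraries, against 0.953, 0.903 and 1.06 in the C libraries. Every D library held several times more CDKN1A than CDKN1B mRNA per length, and the C libraries held nearly equal levels of both. The mean ratio was 4.0 ± 0.654 in D and 0.973 ± 0.0818 in C (SD, n = 3 each).

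CDKN1C encodes p57, an imprinted CIP/KIP inhibitor best known from development and differentiation. It had 17, 22 and 40 counts in the D libraries, against 2, 1 and 1 counts in the C libraries. No C library was above the floor of 3 counts, and every D library was, with the highest count in D replicate 3. The summed counts were 79 in D and 4 in C, a ratio of 22.5 after scaling for library size (exact 95% counting interval 8.46 to 84.8). In D the mean level was 1.46 ± 0.71 CPM, far under that of the other CIP/KIP genes, so CDKN1C remained the rarest measured inhibitor mRNA in both groups.

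CDKN2C encodes p18, an INK4 inhibitor whose gene is known as an E2F target. It had 4.80, 4.68 and 5.34 CPM in the D libraries, against 32.6, 34.9 and 30.1 CPM in the C libraries. Replicates agree closely in both groups and the gap between groups was many times the spread. The means were 4.94 ± 0.349 CPM in D and 32.5 ± 2.43 CPM in C, and the level in C was 6.59 times that in D by the fitted fold. The log2 fold change was −2.72 ± 0.13 (95% interval −3.01 to −2.43; adjusted p = 4.9e-06, edgeR). By p it ranked 23 of the 12682 genes tested, ahead of every other CDK inhibitor gene.

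CDKN2D encodes p19 of the INK4 family, which binds the same kinases as p18. It had 7.17, 6.40 and 7.89 CPM in the D libraries, against 12.7, 11.4 and 7.91 CPM in the C libraries. C replicate 3 was practically level with D replicate 3, while the other C libraries were clearly above all D libraries. The means were 7.15 ± 0.745 CPM in D and 10.6 ± 2.45 CPM in C, a log2 fold change of −0.57 ± 0.19 (95% interval −1.01 to −0.14; adjusted p = 0.031, edgeR). Its call was lost in edgeR without D replicate 1 (adjusted p = 0.084), without D replicate 2 (0.081), without C replicate 1 (0.12) or without C replicate 2 (0.093), and over all alternatives the adjusted p ran from 0.003 to 0.12. It had the weakest evidence of the 6 genes.

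The fall of CDKN2D was smaller than that of CDKN2C in every D library. Relative to the C mean, log2 CPM of CDKN2D differed by −0.54, −0.70 and −0.40 in D replicates 1, 2 and 3. The same differences for CDKN2C were −2.73, −2.77 and −2.58. CDKN2C over CDKN2D in FPKM was 0.436, 0.476 and 0.440 in the D libraries and 1.68, 2.0 and 2.48 in the C libraries. The order of the 2 INK4 mRNAs was thus turned round, with p18 mRNA below p19 mRNA in D and above it in C.

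CDKN3, the phosphatase gene, had 28.3, 27 and 33.9 CPM in the D libraries, against 137, 135 and 115 CPM in the C libraries. The groups were far apart, and it was the most abundant of the 6 mRNAs per length in both. The means were 29.7 ± 3.66 CPM in D and 129 ± 12.5 CPM in C, a log2 fold change of −2.12 ± 0.13 (95% interval −2.42 to −1.82; adjusted p = 1.3e-05, edgeR). CDKN3 over CDK1 in FPKM was 2.72, 2.46 and 2.39 in the D libraries and 2.76, 2.5 and 2.78 in the C libraries. CDK1, the mitotic kinase that KAP can act on, was lower by nearly the same factor (log2 fold change −2.03 ± 0.16; adjusted p = 2.8e-05, edgeR), and the ratios of the groups overlap.

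**Figure D2:**
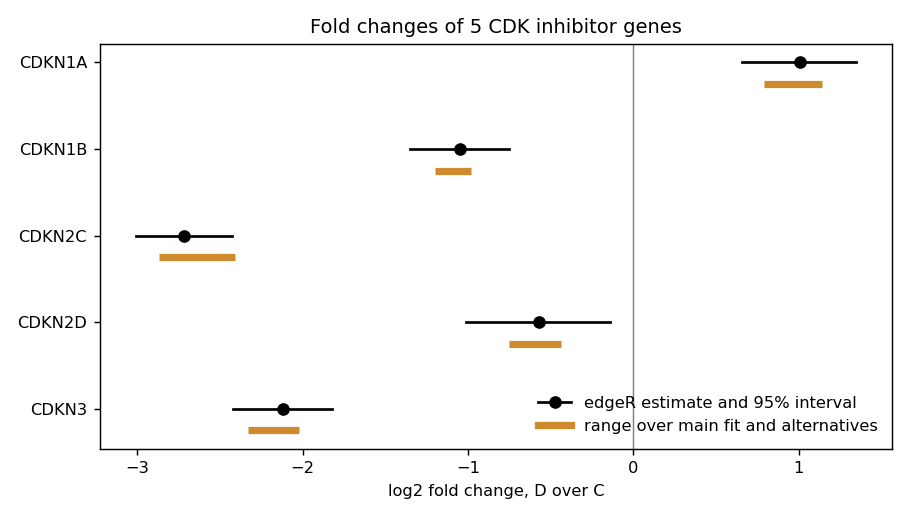
Log2 fold change, D over C, of 5 CDK inhibitor genes, with the 95% interval of the edgeR fit in black and the range over the main fit and all alternatives in orange. CDKN1C is left out because its C libraries held 1 or 2 counts; CDKN1A, at 1.01, is the 1 gene of the 5 to the right of 0.

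Levels per length gave a different order of the genes in each group. In D the order by mean FPKM was CDKN3 (28.0 ± 2.52), CDKN1A (23.5 ± 3.86), CDKN1B (5.87 ± 0.111), CDKN2D (4.75 ± 0.359), CDKN2C (2.14 ± 0.0813) and CDKN1C (0.706 ± 0.319). The ranges of CDKN3 and CDKN1A overlap over the D libraries, and those of the other neighbours do not. In C the order was CDKN3 (135 ± 12.7), CDKN2C (15.7 ± 1.11), CDKN1B (13.5 ± 1.72), CDKN1A (13.0 ± 0.813), CDKN2D (7.87 ± 1.79) and CDKN1C (0.0355 ± 0.0174; SD, n = 3 each). CDKN1A and CDKN1B overlap over the C libraries, and CDKN2C and CDKN1B meet at 14.5 FPKM. CDKN2C thus stood below both CDKN1A and CDKN1B in D and above both in C.

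Summed over the family, INK4 mRNA was lower in D under either scaling, while the CIP/KIP sum overlapped between groups or not depending on the scaling. CDKN1A, CDKN1B and CDKN1C together had 28.5, 26.8 and 34.7 FPKM in the D libraries and 28.4, 27.5 and 23.7 FPKM in the C libraries, and the groups overlap. Divided by the TMM factor of each library, a scaling added after the data were seen, the sums were 29.7, 27.6 and 38 in the D libraries and 27, 26.2 and 22.4 in the C libraries, and every D library was above every C library. CDKN2C and CDKN2D together had 6.94, 6.44 and 7.29 FPKM in the D libraries and 25, 25.1 and 20.4 FPKM in the C libraries, with no overlap, nor was there any with the TMM factors. The CIP/KIP sum was 4.35 ± 0.361 times the INK4 sum in D and 1.13 ± 0.0351 times it in C. CDKN1A made up 63.3 ± 2.48% of the summed FPKM of these 5 genes in D and 26.1 ± 1.47% in C. CDKN2C made up 5.83 ± 0.48% in D and 31.4 ± 1.85% in C. CDKN2D kept a closer share, 12.9 ± 0.803% in D and 15.6 ± 2.12% in C. These sums are described without a test, and they leave out CDKN2A and CDKN2B.

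**Figure D3:**
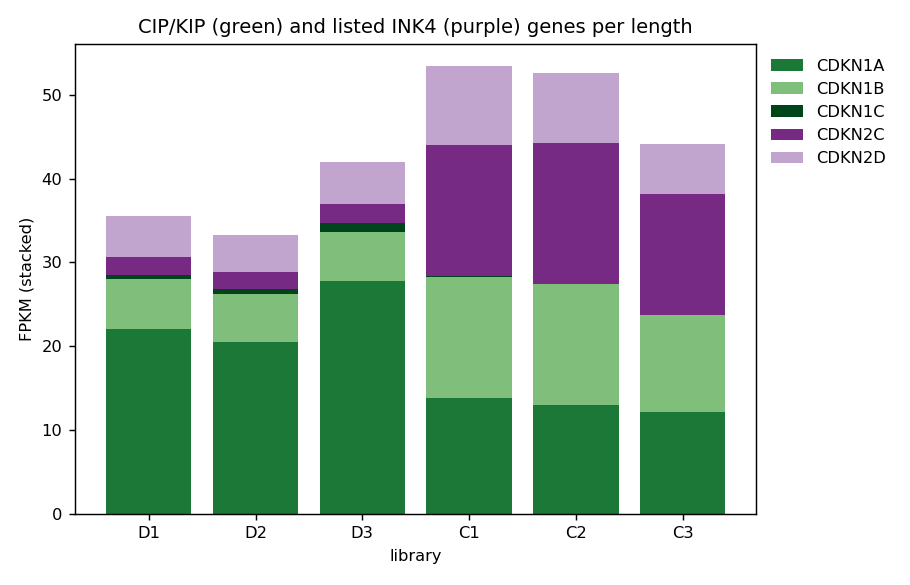
Stacked FPKM of the 3 CIP/KIP genes (green) and the 2 listed INK4 genes (purple) in each library, D libraries left of C libraries. The green part is 26.8 to 34.7 FPKM high in D and 23.7 to 28.4 FPKM in C, while the purple part is 6.44 to 7.29 FPKM in D and 20.4 to 25.1 FPKM in C.

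For each member, the genes with the most similar pattern were sought among well-expressed genes (mean log2 CPM of at least 3). Likeness was the root mean square difference of centred log2 CPM over the 6 libraries, searched over 9551 genes, or 9552 for CDKN1C. CDKN3 was nearest to AURKA (0.072), DLGAP5 (0.079) and CDK1 (0.086), genes of the mitotic spindle and the mitotic kinase. CDKN2C was nearest to FAM83D (0.056), METTL7A (0.13) and IL24 (0.14), of which FAM83D encodes a spindle protein. CDKN1A was nearest to SUPT4H1 (0.042), a subunit of a transcription elongation factor, and to ATP6V1H (0.056) and ATP6V0B (0.059), subunits of the vacuolar proton pump.

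CDKN1B was nearest to ADM (0.036), the adrenomedullin gene, to ATP6V0E2 (0.046) and to GSN (0.073), the gelsolin gene. CDKN2D was nearest to TMEM42 (0.058), TMEM134 (0.073) and FRAT2 (0.093). For CDKN1C the nearest genes searched were ALOX5AP (0.24), NECAB2 (0.30) and CRYAB (0.31), against at most 0.14 for the other members. CDKN1C itself lay below the cut for well-expressed genes, so genes as rare as it were not searched. These distances therefore cannot show whether it has a close partner. With 2 groups in 6 libraries, such a likeness reflects mostly the group difference and its size.

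**Figure D4:**
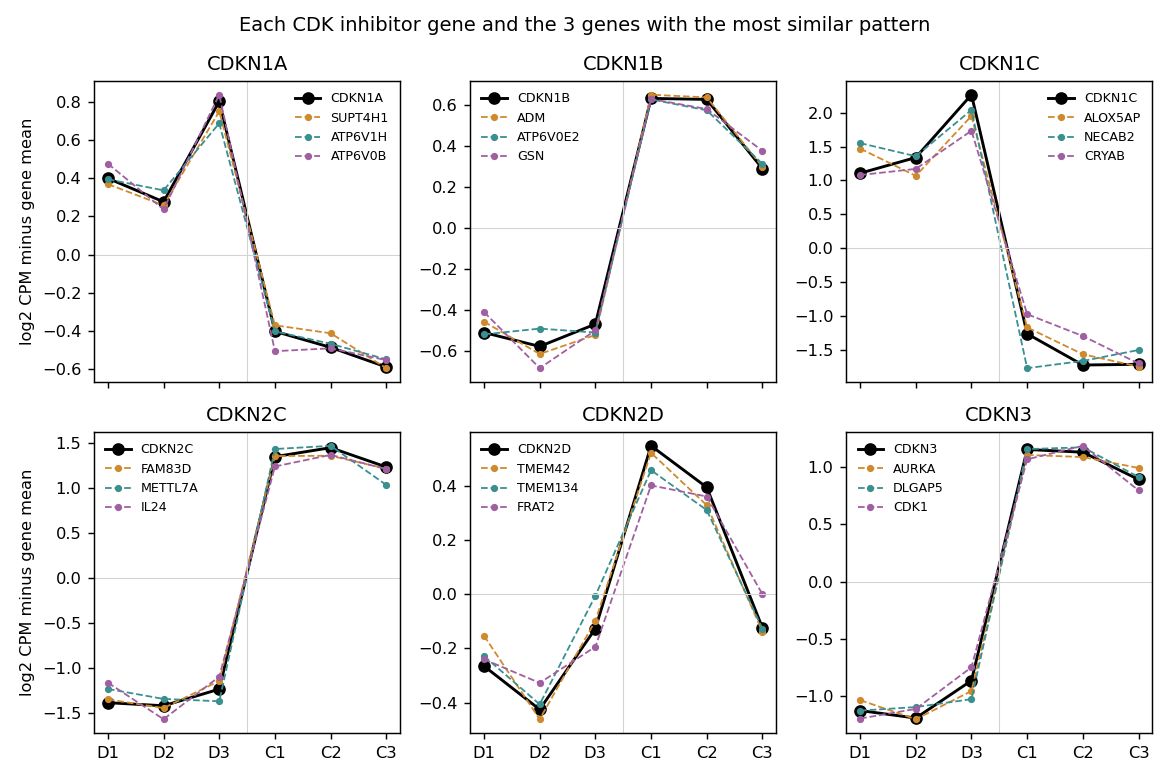
Log2 CPM of each CDK inhibitor gene (black) and of the 3 genes with the smallest root mean square difference from it (dashed), each centred on its own mean over the 6 libraries; D libraries are left of the grey line. CDKN3 runs with AURKA, DLGAP5 and CDK1. CDKN1C has the widest gaps to its nearest genes, from 0.24, but genes as rare as CDKN1C were not searched.

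The kinases and cyclins on which the inhibitors act were measured alongside. Of 13 on the list, 11 were tested, of which 1 was higher and 5 lower, all 5 at least 2-fold (median log2 fold change −0.62). Among all genes tested, 26.8% were higher, 27.7% lower and 10.1% lower by at least 2-fold. CDK4, an INK4 target, had 320 ± 55.4 CPM in D and 201 ± 14.9 CPM in C and rose by 0.67 ± 0.14 on the log2 scale (adjusted p = 0.0036, edgeR). CDK6, the other INK4 target, had 28.4 ± 12.8 CPM in D and 43.8 ± 3.27 CPM in C, and did not pass (log2 fold change −0.62 ± 0.27; adjusted p = 0.076, edgeR). Without D replicate 2 CDK6 passed, at −1.02 (adjusted p = 0.00021, edgeR), and the adjusted p over all alternatives ran from 0.00021 to 0.24. Because CDK4 was higher and CDKN2C lower, CDKN2C over CDK4 in FPKM was 0.0134, 0.0146 and 0.0119 in the D libraries, against 0.139, 0.138 and 0.137 in the C libraries.

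The S phase and mitotic partners were lower. CCNA2, the cyclin of S and G2 phase, had 33.8 ± 1.39 CPM in D and 151 ± 9.34 CPM in C (log2 fold change −2.16 ± 0.10; adjusted p = 4.9e-06, edgeR). CCNB1, a mitotic cyclin, had 87.4 ± 11.9 CPM in D and 294 ± 19.9 CPM in C (−1.75 ± 0.13). CDK2, named after its values were seen because it is the main CIP/KIP target, fell by 1.17 on the log2 scale (51.8 ± 2.81 CPM in D and 116 ± 2.98 CPM in C). CDKN1B and CDK2 fell by similar factors, and CDKN1B over CDK2 in FPKM was 0.272, 0.273 and 0.312 in the D libraries and 0.291, 0.276 and 0.220 in the C libraries, which overlap. CDKN1A over CDK2 was 1.0, 0.971 and 1.48 in the D libraries and 0.277, 0.249 and 0.234 in the C libraries, which do not.

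Genes of G2 and M phase were lower beside the inhibitors. Of 15 G2 and M phase genes, 15 were lower, 14 of them at least 2-fold, and the median log2 fold change was −1.49, against 27.7% of all genes called lower and a median of −0.02. KIF20A, a mitotic kinesin (−3.21), PLK1, a mitotic kinase (−2.29), and AURKA (−2.12) had the lowest p. Of 15 S phase genes, 3 were higher, 5 lower and 7 not called, shares near the 26.8% and 27.7% of all genes, with a median of −0.25. TYMS (−0.82), RRM2 (−0.58) and UHRF1 (−0.88) fell, while the replication factors MCM7 (0.46), CDC45 (0.50) and CDC6 (0.32) rose. CDC6 lost its call in 9 of 19 alternatives. With library size as the only scaling 8 S phase genes were lower, and without C replicate 1 a count of 1 was higher. CDKN3 and CDKN2C fell by more than the median of the G2 and M phase genes, and CDKN1B and CDKN2D by less. The part of cell cycle phase in their falls was not tested.

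Of 13 tested RB, E2F and DP genes downstream, 5 were higher and 4 lower, beside 26.8% and 27.7% of all genes, so the split says nothing particular of the list. In several other fits 2 were higher (library size only, replicate 1 of D left out, or replicate 1 or 2 of C left out, among them), and 3 with C replicate 3 left out. E2F6, a repressor E2F, had 42.8 ± 1.86 CPM in D and 12.7 ± 1.55 CPM in C (log2 fold change 1.75 ± 0.13; adjusted p = 2.2e-05, edgeR). E2F4, the repressor that works with RB relatives, rose by 0.63 and TFDP2, a DP partner of E2Fs, by 0.32. TFDP2 lost its call in 10 of 19 alternatives. E2F8, an atypical E2F of S phase, had 1.90 ± 0.741 CPM in D and 16.5 ± 0.399 CPM in C (−3.10 ± 0.23). RBL2, the p130 relative of RB, fell by 0.78, and the activator gene E2F2 by 1.11. RB1 had 47.8 ± 11.7 CPM in D and 35.8 ± 1.36 CPM in C and did not pass (0.42 ± 0.17; adjusted p = 0.063, edgeR), and without D replicate 3 it passed at 0.56 (adjusted p = 0.0014, edgeR; 0.0014 to 0.36 over all alternatives).

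Of 13 tested genes of ligases that send CIP/KIP proteins to degradation, 3 were higher and 1 lower, beside 26.8% and 27.7% of all genes, and 9 were not called. SKP2, the receptor that targets p27, had 16.1 ± 2.44 CPM in D and 47.5 ± 3.74 CPM in C (−1.56 ± 0.14; adjusted p = 5.7e-05, edgeR). CDKN1B mRNA and the mRNA of its ligase receptor were thus both lower in D. CKS1B, the SKP2 cofactor, named after its values were seen, had 125 ± 30.5 CPM in D and 122 ± 10.6 CPM in C and was not called. DTL, the receptor that targets p21 in S phase, rose by 0.74 ± 0.15, CUL4A, the scaffold of that ligase, by 0.38 ± 0.10, and RCHY1, a ligase that can target p27, by 1.08 ± 0.12. The call of CUL4A was lost in 8 of 19 alternatives. Without D replicate 2, 5 of the 13 were higher and 2 lower, and without D replicate 3, 2 were lower. Protein levels were not measured.

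Of 23 tested regulators of the CDKN genes, 5 were higher and 8 lower (median 0.02), shares near the 26.8% and 27.7% of all genes and so no result about the list. KLF4, a factor known to activate CDKN1A, had 55.4 ± 2.39 CPM in D and 18.4 ± 1.70 CPM in C (log2 fold change 1.59 ± 0.12; adjusted p = 2.2e-05, edgeR). On the same list KLF6 (−0.71), FOXO1 (−0.95), FOXO4 (−0.71) and SMAD4 (−0.42) were called lower. Whether any of them acted on CDKN1A was not tested. CEBPB, a stress-responsive factor, rose by 1.87 ± 0.16. CBX7, a Polycomb subunit known to repress CDKN2A, fell (−1.71), as did SMAD3, a mediator of TGF-beta signals (−1.52). BMI1, another such Polycomb subunit, was rare, with 8 to 14 counts in the D libraries and 29 to 38 in the C libraries. It passed the filter on low counts only through the C libraries, so it is given by its counts.

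**Figure D5:**
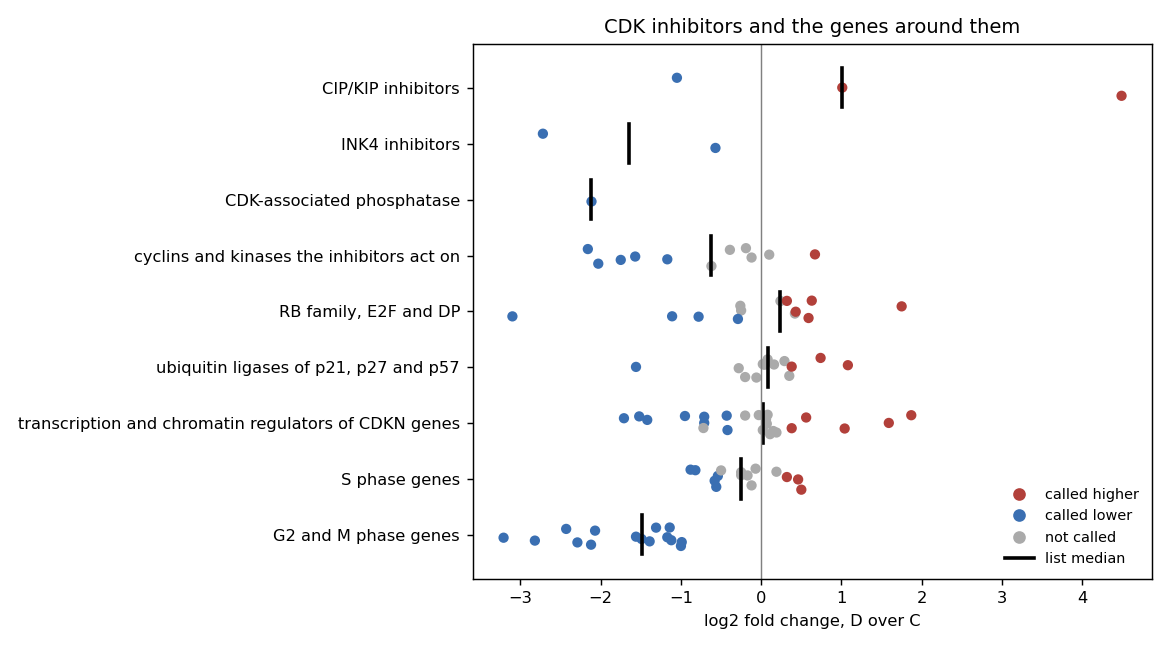
Log2 fold change, D over C, of every tested gene in the CDK inhibitor families and the lists around them; red dots were called higher, blue dots lower, grey dots were not called, and the bar is the list median. CDKN1C is drawn at the log2 of its ratio of summed counts, 4.49; all 15 G2 and M phase genes lie left of 0, while the regulators of CDKN genes lie on both sides.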

How the data were processed

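Each of the 6 libraries had a table of whole-number counts per gene symbol, which the authors deposited without normalization, and a table of FPKM values for the same genes. Per the labels' protocols, RNA was purified by column and made into libraries with a SMARTER kit. The aligner, counter and strand setting were not given in the sources used here. GRCm38 and mm10, both mouse builds, are named in the submitters' processing notes and the labels name the mouse, but the symbols follow human naming. The supplied reference is mouse, so no coordinates or sequences are given. The deposited FPKM equalled the count divided by the library total and 1 gene length in 17144 of 17144 genes (relative tolerance 0.001).

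Differences were tested on the counts with edgeR 4.0.16 in R 4.3.3 (filterByExpr, TMM, quasi-likelihood F test, 2-sided, group as the only term) over 12682 genes, which held 99.952% of the counts. Calls were made at a Benjamini-Hochberg adjusted p under 0.05. Values are TMM-normalized CPM, as mean ± SD with n = 3 per group, and the SE of a log2 fold change was taken from its size and the square root of F. The ratio of CDKN1C is of summed counts over effective library sizes with an exact binomial interval (95%). Patterns used log2 CPM with a prior count of 2.

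The members, lists and tests were chosen with earlier results of these data known. All members were named. From each other list the 3 genes called higher and the 3 called lower with the lowest p were named, besides RB1, CDK4, CDK6, SKP2 and MTAP. Some results the rule selects are not reported here. Alternatives were DESeq2 1.42.0, limma-voom (limma 3.58.1), other scalings (RLE, upper quartile, or library size alone), other filters (none, or 1 CPM in 3 libraries), a stricter threshold (adjusted p under 0.01), a block for the replicate number, leaving out each library, and length trends removed by lowess (span 0.4). On FPKM, limma-trend was run with a pseudocount of 1 or 0.1 on genes above 1 FPKM in 3 libraries, and with 1 on all genes. The fits were tested on simulated data.

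Within groups, libraries differed by more than sampling noise (chi-square per degree of freedom 6.48 to 96.0), so none was counted as a duplicate.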

Additional observations from a re-analysis of the deposited data

How the results depend on the processing

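CDKN1A, CDKN1B, CDKN2C and CDKN3 kept their direction and call in all 19 alternatives, with log2 fold changes of 0.79 to 1.14, −1.20 to −0.98, −2.87 to −2.41 and −2.33 to −2.02. CDKN1C was tested in 16 of them. It passed the filter of the main fit only through its D libraries, so these fits are not taken as support for its call. With 1 CPM in 3 libraries, with log2(FPKM + 1) and with log2(FPKM + 0.1), CDKN1C was filtered out and 1 member was higher in place of 2. CDKN2D (−0.75 to −0.44) lost its call at an adjusted p under 0.01, with the replicate block (adjusted p = 0.061, edgeR) and without D replicate 1, D replicate 2, C replicate 1 or C replicate 2. Leaving out each library gave 2 members higher in every fit, CDKN1C among them, and 3 to 4 lower. Over all genes it gave 2627 to 3888 higher and 2780 to 3879 lower, against 3393 and 3509. FPKM values without composition scaling gave 2213 higher with log2(FPKM + 1) and 2209 with log2(FPKM + 0.1). Library size only gave 2586 higher and 4449 lower, so 36.8% of calls were higher in place of 49.2%, and it moved the median of all genes to −0.17.

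Same-numbered libraries did not deviate together (correlations of 0.01, −0.40 and −0.36 for numbers 1, 2 and 3). Pairs with different numbers had correlations of −0.11 to 0.42. Deviations centred within groups of 3 libraries are not independent, so these values cannot show whether a number marks a shared batch. With the replicate block 2694 genes were higher and 2977 lower, and 2 members, CDKN1C among them, were higher and 3 lower.

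Of 266 list counts, 232 stayed within 1.5 times the main count. Higher counts of the RB and E2F list were 2 or 3 in place of 5 under 10 alternatives, and of the S phase list 1 in place of 3 at an adjusted p under 0.01 and without C replicate 1. Lower counts were 8 in place of 5 for the S phase genes and for the cyclins and kinases, with library size only and both filtered FPKM fits. The ligase list had up to 5 higher and up to 3 lower, against 3 and 1, and with length trends removed the regulators had 8 higher in place of 5. The neighbour list had 2 lower in place of 1 under 6 alternatives. The cause of these shifts was not tested. With FPKM divided by TMM factors, added after the data were seen, the summed CIP/KIP FPKM, D minus C, was 6.56 in place of 3.47, and the summed FPKM of the 2 listed INK4 genes, D minus C, was −15.1 in place of −16.6.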

Other observations

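Genes beside the CDKN2A and CDKN2B locus and the CDKN1C locus were also read. MTAP, the methionine salvage gene next to CDKN2A, was well expressed in every library, with 1288 to 1689 counts in D and 1750 to 1992 in C. It was not called (log2 fold change −0.17 ± 0.10; adjusted p = 0.19, edgeR), although it passed with library size only and on FPKM values. DMRTA1, which lies on the CDKN2B side, had 2.16 ± 0.259 CPM in D and 4.07 ± 0.665 CPM in C (SD, n = 3 each; log2 fold change −0.91 ± 0.19; adjusted p = 0.004, edgeR). PHLDA2, an imprinted gene near CDKN1C, had 65.5 ± 18.1 CPM in D and 35.2 ± 3.38 CPM in C (0.90 ± 0.19; adjusted p = 0.004, edgeR). SLC22A18, between the 2 imprinted genes, had 15.3 ± 3.02 CPM in D and 14.6 ± 0.687 CPM in C and was not called. IGF2, another gene of that imprinted region, had 2 to 6 counts in the D libraries and 5 to 6 in the C libraries and was not tested. Of 10 genes on this list, 7 had a row and 5 were tested, 1 higher and 1 lower. Beside 26.8% and 27.7% of all genes, these counts say nothing particular of the list.

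Markers of other cell types were summed in each library. The summed level of 8 epithelial markers was 125 to 161 CPM in the D libraries and 83.9 to 93.5 CPM in the C libraries, with 6 of 8 at more than 3 counts in every library. ESRP1, an epithelial splicing factor, had 22.6 ± 2.14 CPM in D and 1.35 ± 0.0705 CPM in C (log2 fold change 4.06 ± 0.15). KRT18 (0.90) was also called higher, while KRT8 (−0.06) was not called. CDH1 had 20 to 44 counts in D and 8 to 11 in C. It passed the filter on low counts only through the D libraries, so it is given by its counts. CLDN4, also rare, had 10 to 22 counts in D and 65 to 72 in C, and EPCAM had 2 to 7 counts in D and 3 to 6 in C. The sum of 5 endothelial markers was 14.3 to 15.5 CPM in D and 20.2 to 25.1 CPM in C. The sum of 6 hematopoietic markers was 459 to 501 CPM in D and 478 to 499 CPM in C, almost all of it CD68, while PTPRC had at most 8 counts. The sum of 8 osteoblast markers was 64.2 to 68.9 CPM in D and 196 to 254 CPM in C. The collagen genes COL1A1 and COL1A2 made up most of it. SPP1 on the same list had more counts in D, 29 to 51 against 2 to 10 in C. The part of these markers in the changes of the CDK inhibitors was not tested.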
